A study of Mus musculus with 16 samples.

Results

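Heat shock and chaperone genes were followed in flexor tendons of C57 and MRL mice with and without injury. The set held 10 genes, taken by symbol from the 49568 gene symbols of the count table: Hspa1a, Hspa1b, Hspa8, Hspa12a, Dnajb1, Hsph1, Hsp90aa1, Hspb1, Hspd1 and Hspe1. All 10 were present, and all 10 passed the filter on low counts in every comparison. RNA-seq had been performed on 16 libraries, with 4 in each of 4 groups, and a single tendon gave each library. The mice were males of 9 to 11 weeks from the inbred strains C57BL/6J (C57) and MRL/MpJ (MRL), the latter being known for healing several tissues with little scarring. Injured tendons had been collected at 7 days post-injury (dpi) after a transverse cut through about 50% of the deep digital flexor tendon of the third digit of the hind paw, and uninjured tendons had not been cut. The sheath and the tissue around the tendon had not been removed, so each library mixes tendon cells with other cells, and no group carried a transgene. Surgery was done under ketamine and xylazine, with buprenorphine then and in the following days, and the effect of these drugs and that of the cut cannot be told apart. The injured libraries have no replicate number and are called by their label names, which for C57 run BI-181, BI-183, BI-184, BI-185 and for MRL run BI-270, BI-272, BI-274, BI-275. Values of injured libraries are always given in that order.

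Chaperones bind unfolded or misfolded proteins and help them fold, and many of their genes are switched on by heat shock factor 1 (Hsf1) when unfolded protein builds up in the cytosol. HSP70 proteins work in a cycle of ATP hydrolysis, which J-domain proteins such as the product of Dnajb1 start and nucleotide exchange factors such as the product of Hsph1 end, and they pass some clients to HSP90. Small heat shock proteins such as the product of Hspb1 hold unfolded chains without using ATP, and HSP60 (Hspd1) with its lid HSP10 (Hspe1) folds proteins inside mitochondria.

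Hspa1a and Hspa1b, the stress-inducible cytosolic HSP70 genes, lay next to each other on the minus strand of chromosome 17 in GRCm38 (GENCODE M21). Hspa1a was at chr17:34969190-34972156 and Hspa1b at chr17:34956436-34959238, with 9951 bases between them. Each had a single annotated transcript, and their upstream sequences were nearly the same: 247 of the 250 bases before the start were identical. The last 150 of these bases are shown to make that plain, as RefSeq gives them for GRCm38.p6 on the minus strand, 5′ to 3′, with matches to a paired heat shock unit in capitals.
Hspa1a, chr17:34972157-34972306: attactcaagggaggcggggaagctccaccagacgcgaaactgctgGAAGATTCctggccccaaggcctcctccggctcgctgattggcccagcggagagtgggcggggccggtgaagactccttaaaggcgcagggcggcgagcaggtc
Hspa1b, chr17:34959239-34959388: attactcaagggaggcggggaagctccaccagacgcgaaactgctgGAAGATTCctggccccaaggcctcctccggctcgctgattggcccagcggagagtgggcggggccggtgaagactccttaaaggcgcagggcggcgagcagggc

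Hspd1 and Hspe1 were annotated head to head on chromosome 1, Hspd1 at chr1:55077835-55088243 on the minus strand and Hspe1 at chr1:55088132-55091307 on the plus strand, and their annotations overlapped by 112 bases. For 1 of the 2 windows of Hspd1 and for that of Hspe1, the bases upstream of the start were therefore largely the same DNA, and they held a run of 2 overlapping matches to a triple heat shock unit. That run is shown within 30 bases of the plus strand, and the same bases were counted for both genes. Annotated exons covered all 250 upstream bases of both windows, and the run lies inside the annotated Hspd1 gene.
Hspe1 and Hspd1, chr1:55088053-55088082: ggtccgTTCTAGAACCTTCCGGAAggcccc

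Hspb1 (chr5:135887919-135889563, plus strand) held 2 paired units in the last 150 bases before its start. Hsph1 (chr5:149614287-149636376, minus strand) held 1 paired unit of the other orientation, the same in both of its windows. It is shown within 30 bases because these windows partly overlap annotated exons, and the unit itself lies inside the annotated Hsph1 gene.
Hspb1, plus strand, chr5:135887769-135887918: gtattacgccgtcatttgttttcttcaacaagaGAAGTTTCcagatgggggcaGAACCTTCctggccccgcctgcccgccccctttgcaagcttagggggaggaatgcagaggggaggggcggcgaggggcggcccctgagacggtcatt
Hsph1, minus strand, chr5:149636351-149636380: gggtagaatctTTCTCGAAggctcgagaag

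The units searched were GAANNTTC and TTCNNGAA, and the triple unit was GAANNTTCNNGAA, each on both strands in the 250 bases upstream. A triple match always contains both paired forms. RefSeq windows were matched by symbol for 8 of the 10 genes, in 12 windows. The triple unit occurred in 0.466% of the 32851 windows of all genes, and at least 1 paired form in 12.8% of them. Of the 8 genes, Hspd1 and Hspe1 had the triple unit. None of the 3 forms was found in the windows of Dnajb1 (chr8:83608193-83612653, plus strand) or Hspa12a (chr19:58795750-58943654, minus strand), which says only that these letters are not in those windows. Hspa8 is at chr9:40800984-40810087 on the plus strand and Hsp90aa1 at chr12:110690605-110702728 on the minus strand.

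Several of these genes have near copies, and reads of 100 bases cannot always be told apart. For Hspa1a, 56.5% of all stretches of 100 bases in its transcript also occurred in transcripts of other genes, and 47.1% occurred in Hspa1b. The counts of Hspa1a and Hspa1b are therefore given both apart and summed. Shared stretches made up 44% for Hspb1, 38% for Hsp90aa1, 28.5% for Hspa8, 23.4% for Hspd1, 10% for Hspe1 and 0.741% for Hspa12a, nearly all of them with pseudogenes except for the last, which overlaps Eno4. Dnajb1 and Hsph1 shared none.

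The libraries held between 12552424 and 23741648 counts on genes, and the 4 injured MRL libraries were deeper (18524170 or more) than the other groups (17832908 or fewer). All 10 genes had at least 59 counts in each library, far above the floor of 3 counts used for reliable detection. All 10 tenocyte markers were detected in all groups (1 of them, Kera, had no count in 1 library), and they summed to between 3.34% and 10.8% of counts. Markers of other tissues set a pair of libraries apart. In the library labelled C57 uninjured replicate 4, 12 epidermal markers took 7.25% of counts, against at most 0.0997% elsewhere, and in BI-181, 12 skeletal muscle markers took 6.37%, against 0.214% in BI-183 and at most 0.00176% elsewhere. Macrophage and other leukocyte markers, 10 genes, took between 0.0561% and 0.142% in uninjured and between 0.328% and 0.816% in injured libraries, and of the 9 tested, 5 rose in C57, where 0.908% of all genes did, and 8 in MRL, where 5.25% did, while the T cell marker Cd3e was at or near 0 in nearly all. In bulk tissue, fewer cells of a type and less RNA per cell cannot be told apart, and the part of these cell mixtures in the results below was not tested except where a library is left out.

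Both uninjured libraries numbered 4 went against their strain labels. In the injured libraries, 58 genes exceeded 2 CPM (counts scaled to the library size, with TMM factors) in all MRL and stayed below 0.5 CPM in all C57 tendons, and 17 genes showed the opposite split. The library labelled C57 uninjured replicate 4 had 55 of the 58 MRL genes above 1 CPM and 2 of the 17 C57 genes, whereas the other 3 uninjured C57 libraries had at most 1 of the MRL genes and at least 14 of the C57 genes. The library labelled MRL uninjured replicate 4 had 2 of the MRL genes and 14 of the C57 genes, and the other 3 uninjured MRL libraries had 53 to 55 and 2 to 3. This split was looked for after the values of Hspb1 and its pseudogene had been seen. All libraries stay in the groups of their labels, and the change of each of the 10 genes after injury is also given without them.

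**Figure D1:**
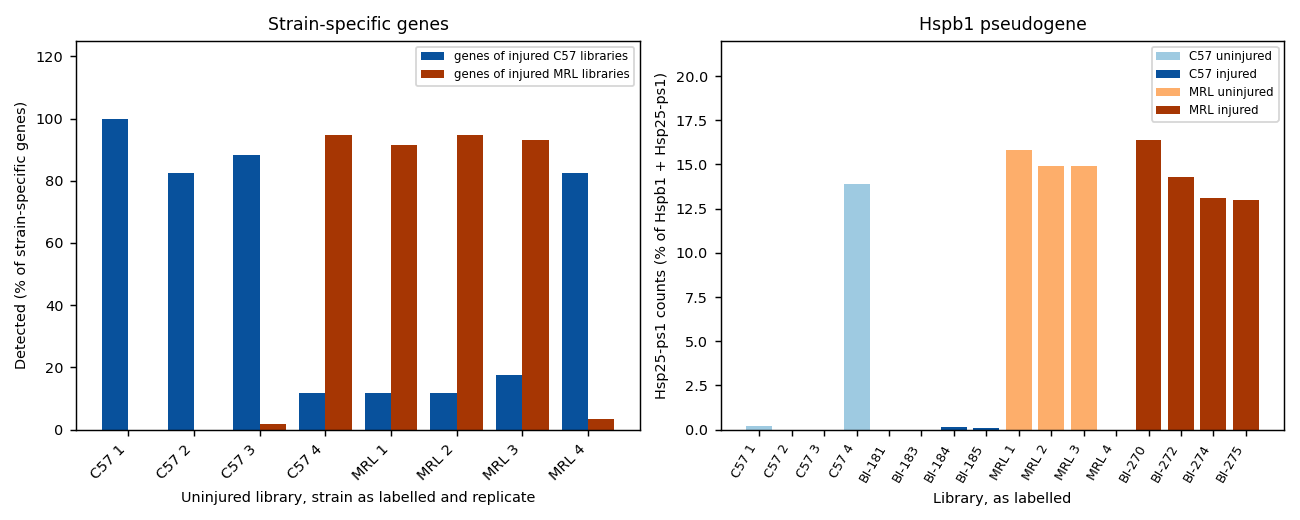
Left: share of the 58 MRL-specific and 17 C57-specific genes, chosen in injured libraries, that exceeded 1 CPM in each uninjured library (y axis, %), with libraries named as labelled. Right: counts on the pseudogene Hsp25-ps1 as a percentage of Hspb1 plus Hsp25-ps1 in all 16 libraries. In both panels the libraries labelled C57 4 and MRL 4 carry the pattern of the other strain.

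Levels are in CPM, which compares a gene between libraries. To compare genes with each other, CPM were divided by the exon length in kilobases (RPKM). This length joins the exons of all annotated transcripts of a gene, and stretches shared with near copies were not corrected for. The order of the genes is therefore approximate. In the injured C57 tendons, Hspa8, the constitutive cytosolic HSP70, had the highest level per length, with 134 ± 11.6 RPKM (SD, n = 4), and Hspa12a, a distant relative of the HSP70 family, the lowest, with 1.11 ± 0.451. Between them came Hspb1 with 111 ± 110 (from 47.6 to 275, the highest in BI-181, without which its mean CPM goes from 115 to 58.2), Hspd1 with 33.5 ± 5.12, Hspe1 with 27.1 ± 4.86, Hsp90aa1 with 20.5 ± 5.54, Dnajb1 with 17.6 ± 4.21, Hspa1b with 14.3 ± 1.34, Hspa1a with 4.56 ± 0.378 and Hsph1 with 2.81 ± 1.98 RPKM. The neighbours Hspa8 and Hspb1, Hspd1 and Hspe1, Hspe1 and Hsp90aa1, Hsp90aa1 and Dnajb1, Dnajb1 and Hspa1b, Hspa1a and Hsph1, and Hsph1 and Hspa12a had overlapping ranges. In the injured MRL tendons the same gene was highest and the same lowest, at 90 ± 6.24 and 0.415 ± 0.058 RPKM, and Hspa1a lay below Hsph1, with 2.65 ± 0.752 against 4.42 ± 0.739 RPKM.

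**Figure D2:**
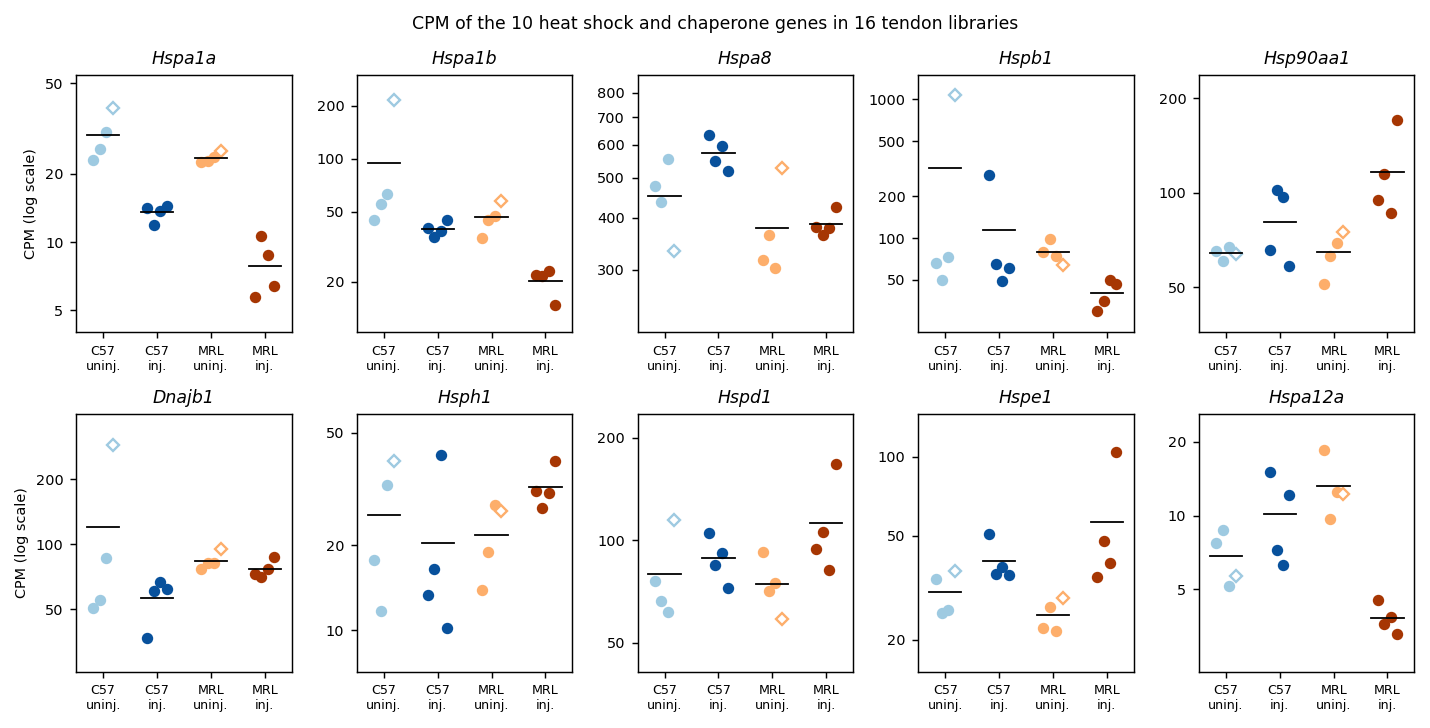
CPM (y axis, log scale, different range for each gene) of the 10 genes in the 4 groups; each point is a library, the black line is the mean of 4, and open diamonds are the 2 uninjured libraries numbered 4. Hspa1a, Hspa1b, Hspb1 and Hspa12a lie lower in all injured than in all uninjured MRL libraries, and the diamond of the library labelled C57 uninjured replicate 4 lies far above its group for Hspb1 (1080 CPM), Dnajb1 (288 CPM) and Hspa1b (215 CPM).

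The inducible HSP70 genes were lower in injured than in uninjured MRL tendons, and Hspa1a also lay lower in every injured C57 library. Hspa1a measured 22.6, 22.7, 23.7 and 25.2 CPM in the uninjured MRL libraries, the last being the one labelled replicate 4. It measured 5.72, 10.6, 8.73 and 6.41 CPM in the injured MRL libraries. The groups did not overlap, and the log2 fold change was -1.58 (SE 0.26, adjusted p = 0.00531, edgeR's quasi-likelihood test), a 2.99-fold lower level. Without the library labelled MRL uninjured replicate 4 it was -1.53 (adjusted p = 0.0169, same edgeR test). In C57, Hspa1a measured 22.9, 25.6, 30.5 and 39 CPM in the uninjured libraries and 14.1, 11.9, 13.7 and 14.4 CPM in the injured ones. These groups did not overlap either, but the log2 fold change of -1.17 (SE 0.24) had an adjusted p of 0.0569 in the edgeR test and so did not pass. With the library labelled C57 uninjured replicate 4 left out, the level was 2-fold lower, just past the limit of size (adjusted p = 0.0264, edgeR), and it was just short of that limit when BI-181 was left out too (-0.98, adjusted p = 0.0307).

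Hspa1b measured 35.5, 44.8, 47.3 and 57.8 CPM in the uninjured MRL libraries. It measured 21.7, 21.4, 23 and 14.7 CPM in the injured ones, so every injured library lay below every uninjured one. The log2 fold change was -1.19 (SE 0.22, adjusted p = 0.00778, edgeR), and -1.06 (adjusted p = 0.0251, edgeR) without the library labelled MRL uninjured replicate 4. The C57 tendons gave 44.6, 55.5, 62.9 and 215 CPM without injury, the last in the library labelled replicate 4, and 40.2, 36.1, 38.9 and 45.1 CPM after injury. The groups overlapped by 1 library. The log2 fold change in C57 was -1.29 (SE 0.48, adjusted p = 0.254, edgeR) with all libraries and -0.48 (SE 0.17, adjusted p = 0.152) without that one.

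With the counts of Hspa1a and Hspa1b summed, the log2 fold change was -1.31 in MRL (adjusted p = 0.00293, edgeR) and -1.26 in C57 (adjusted p = 0.197). The C57 value rested on the library labelled C57 uninjured replicate 4, whose sum was 254 CPM against 67.5 to 93.4 CPM in the rest of its group. With the uninjured library numbered 4 left out, the sum gave -0.63 in C57 (SE 0.17, adjusted p = 0.0573, edgeR) and -1.21 in MRL (SE 0.20, adjusted p = 0.0105). The ratio of Hspa1b to Hspa1a counts was 1.57 to 2.29 in the uninjured libraries other than the one labelled C57 uninjured replicate 4, where it was 5.51. It was 2.84 to 3.14 in the injured C57 and 2.03 to 3.79 in the injured MRL libraries. This ratio depends on the assignment of reads that fit both genes.

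Hspa8, the constitutive HSP70, did not pass the test in either strain. It measured 478, 438, 554 and 333 CPM in the uninjured and 633, 550, 595 and 520 CPM in the injured C57 libraries, with a log2 fold change of 0.31 (adjusted p = 0.52, edgeR). In MRL it measured 316, 363, 303 and 528 CPM without injury and 380, 364, 379 and 426 CPM after injury, with a log2 fold change of 0.04 (adjusted p = 0.908, edgeR). The libraries labelled replicate 4 were the highest of the uninjured MRL and the lowest of the uninjured C57 libraries. Without them, the values were 0.26 in MRL (adjusted p = 0.296, edgeR) and 0.19 in C57 (adjusted p = 0.549).

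Hspa12a had the largest change of the 10 genes in MRL. It measured 18.6, 9.67, 12.5 and 12.3 CPM in the uninjured MRL libraries and 4.54, 3.59, 3.84 and 3.29 CPM in the injured ones. Every injured library was below every uninjured one, with a log2 fold change of -1.79 (SE 0.33, adjusted p = 0.00912, edgeR), a 3.46-fold lower level, and it was -1.81 (adjusted p = 0.0207, edgeR) without the library labelled MRL uninjured replicate 4. In C57 it measured 7.73, 8.76, 5.18 and 5.66 CPM without injury and 15.1, 7.23, 6.3 and 12.1 CPM after injury. Those groups overlapped, and the log2 fold change of 0.54 (SE 0.41, adjusted p = 0.572, edgeR) had the opposite sign. It was 0.31 (adjusted p = 0.819) without BI-181 and 0.46 (adjusted p = 0.575) without the library labelled C57 uninjured replicate 4.

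The helpers of HSP70 did not pass in either strain. Dnajb1, a J-domain protein that starts the HSP70 cycle, measured 50.6, 55.3, 86.8 and 288 CPM in the uninjured and 36.6, 60.8, 66.7 and 61.8 CPM in the injured C57 libraries. Its log2 fold change in C57 was -1.14 (SE 0.55, adjusted p = 0.361, edgeR) with all libraries and -0.23 (adjusted p = 0.65) without the library labelled C57 uninjured replicate 4, which held the 288 CPM. In MRL it ranged from 76.4 to 95.2 CPM without and from 70.4 to 87.5 CPM with injury, with a log2 fold change of -0.12 (SE 0.14, adjusted p = 0.637, edgeR), and -0.04 (adjusted p = 0.894) without the library labelled replicate 4. Hsph1, the HSP110 that exchanges nucleotide on HSP70, ranged from 10.2 to 41.7 CPM over the C57 libraries, and its value was -0.37 (SE 0.52, adjusted p = 0.794, edgeR). In MRL it ranged from 13.9 to 27.7 CPM in uninjured and from 27 to 39.7 CPM in injured tendons, with a log2 fold change of 0.57 (SE 0.25, adjusted p = 0.169, edgeR). Leaving out the libraries labelled replicate 4 gave -0.07 (adjusted p = 0.96) in C57, where leaving out BI-184 with its 41.7 CPM gave -0.95 (adjusted p = 0.435), and 0.69 (adjusted p = 0.148) in MRL.

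Hsp90aa1, the inducible cytosolic HSP90, was higher in each injured than in each uninjured MRL library. It measured 51.3, 62.9, 69.1 and 75.2 CPM without injury and 94.9, 115, 86.4 and 170 CPM with it, the highest in BI-275. The log2 fold change of 0.86 (SE 0.23, adjusted p = 0.0373, edgeR) passed on p but not on size, and without the library labelled MRL uninjured replicate 4 it was 0.95 (adjusted p = 0.0484). With 1 library left out, 4 of 8 fits kept the pass on p, the adjusted p ran from 0.0245 to 0.106 (without MRL uninjured replicate 1), and the value was 0.62 without BI-275. In C57 the value was 0.29 (SE 0.21, adjusted p = 0.555, edgeR), from 60.7 to 67 CPM without injury and from 58.5 to 102 CPM with it, and it was the same size (adjusted p = 0.496) without the library labelled replicate 4.

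Hspb1, the main small heat shock protein (HSP25), was lower after injury in MRL on p alone. It measured 79.6, 97.7, 73.7 and 64 CPM without injury and 29.8, 35.3, 49.6 and 46.9 CPM with it. No value of one group reached the other, and the log2 fold change was -0.96 (SE 0.21, adjusted p = 0.0172, edgeR). Without the library labelled MRL uninjured replicate 4 it was -1.03 (adjusted p = 0.0245, edgeR) and passed both criteria, as in 4 of the 8 fits with a library left out. The adjusted p was above the limit in the fits without MRL uninjured replicate 2 (-0.83, adjusted p = 0.0527, edgeR) and without BI-272 (-0.89, adjusted p = 0.0556), and it was 0.558 in the fit over all 16 libraries. In C57, single libraries set the value. The uninjured libraries measured 66.4, 50, 73.3 and 1080 CPM, the last in the library with the epidermal markers, and the injured ones 284, 64.5, 49.1 and 61.1 CPM, the first in BI-181 with the muscle markers. The log2 fold change was -1.50 with all libraries (adjusted p = 0.574, edgeR), 0.83 without the first of these libraries (adjusted p = 0.538) and -0.12 without both (SE 0.19, adjusted p = 0.776).

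Counts were also assigned to Hsp25-ps1, a pseudogene that shares 44% of the 100-base stretches of Hspb1, and they differed by strain. In the MRL libraries other than the one labelled uninjured replicate 4, Hsp25-ps1 had 126 to 237 counts, or 13% to 16.4% of the sum with Hspb1. In the C57 libraries other than the one labelled uninjured replicate 4, it had 0 to 2 counts. The library labelled C57 uninjured replicate 4 had 2640 counts (13.9%) and the one labelled MRL uninjured replicate 4 had none, of 795 counts on Hspb1. All reads had been mapped to the C57BL/6J reference genome. With both genes summed, the log2 fold change after injury in MRL was -0.93 (SE 0.22, adjusted p = 0.0235, edgeR), and -1.06 (adjusted p = 0.0195) without the library labelled MRL uninjured replicate 4.

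The mitochondrial pair differed in how clearly it moved. Hspe1, the HSP10 lid, measured 22.1, 26.8, 21.6 and 29 CPM in the uninjured MRL libraries and 34.7, 47.5, 39.4 and 104 CPM in the injured ones, with no overlap. The log2 fold change was 1.19 (SE 0.34, adjusted p = 0.0459, edgeR). Without BI-275, which held the 104 CPM, it was 0.71 (SE 0.19, adjusted p = 0.0474), and without the library labelled MRL uninjured replicate 4 it was 1.27 (SE 0.38, adjusted p = 0.0718), so that 2 of the 8 fits with a library left out met both criteria. Hspd1, HSP60 itself, measured 92.2, 71.1, 75 and 58.7 CPM without injury and 94.1, 106, 81.9 and 168 CPM with it, the last again in BI-275. The groups overlapped, with a log2 fold change of 0.61 (SE 0.24, adjusted p = 0.125, edgeR). In C57, Hspe1 ranged from 25.4 to 36.5 CPM and from 35.5 to 50.6 CPM, with 0.35 (SE 0.22, adjusted p = 0.487, edgeR), and Hspd1 gave 0.11 (SE 0.24, adjusted p = 0.883). Without the libraries labelled replicate 4, the values in C57 were 0.45 (adjusted p = 0.263) for Hspe1 and 0.34 (adjusted p = 0.304) for Hspd1, and Hspd1 in MRL gave 0.52 (adjusted p = 0.227). Without BI-275, Hspd1 in MRL gave 0.35 (adjusted p = 0.245).

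**Figure D3:**
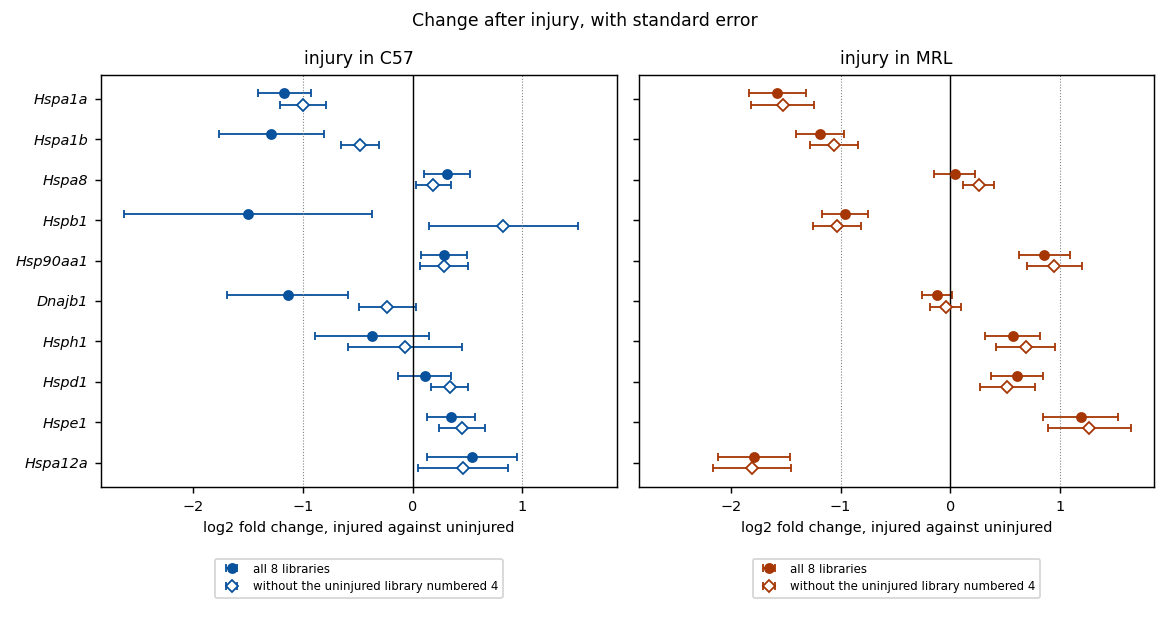
Log2 fold change of injured against uninjured tendons (x axis) with its standard error for the 10 genes in C57 (left) and MRL (right); filled circles use all 8 libraries and open diamonds leave out the uninjured library labelled replicate 4. Dotted lines mark log2 fold changes of -1 and 1. In C57 Hspb1 moves from -1.50 to 0.83 between the symbols, and in MRL Hspe1 is the highest (1.19) and Hspa12a the lowest (-1.79).

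Counted over the set, no gene passed both criteria in C57, namely an adjusted p under 0.05 with a log2 fold change above 1 or below -1, where 1.07% of the 14424 genes tested did and 2204 had an unadjusted p under 0.05. Of the 10 genes, 1 had groups that did not overlap, against 11.7% of all genes. Without the library labelled C57 uninjured replicate 4, 1 of 10 fell (Hspa1a), where 1.51% of all genes did, and 2 of 10 had groups that did not overlap (Hspa1a lower and Hspe1 higher), against 21.8%. DESeq2 also gave 1 gene in C57, Hspa1a (-1.12, adjusted p = 0.000999), against 3.38% of the 26926 genes with any count. All DESeq2 shares are over genes with any count. Those to which DESeq2 gave no adjusted p, such as Hspb1 in C57, count as not passing. These shares may therefore understate the share among genes with an adjusted p. In MRL, 3 of 10 fell (Hspa1a, Hspa1b and Hspa12a) against 2.15% of the 14274 genes tested, and 1 rose (Hspe1) against 5.25%. DESeq2 called the same 4, where it called 6.83% of genes in either direction. On adjusted p alone 6 of 10 passed, against 11.1%, and 6 of 10 had groups that did not overlap, against 22.9%. Leaving out the library labelled MRL uninjured replicate 4, 4 fell (with Hspb1) against 1.43% and none rose against 4.68%. The median log2 fold change of the 10 was -0.04 in MRL and -0.13 in C57, close to the medians of -0.03 and -0.05 over all genes tested. Hspa1a and Hspa1b share stretches, and with them counted as 1 gene and all libraries kept, 3 genes of the set passed in MRL. In that fit 7.4% of all genes passed in either direction. The set was chosen with earlier results of these data known, which limits these comparisons with all genes.

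The strains were compared at each state. In injured tendons, Hspa1b was lower in MRL than in C57, at 20.2 ± 3.75 against 40.1 ± 3.77 CPM (SD, n = 4 each). Its log2 difference was -1.01 (SE 0.20, adjusted p = 0.0252, edgeR), and it was the only 1 of the 10 to pass in a comparison in which 1.88% of the 14626 genes tested were lower in MRL. It lay at the limit of size and 1 of the 8 fits with a library left out kept both criteria (-0.83 to -1.06, adjusted p from 0.0392 to 0.0858). Hspa1a was at 7.86 ± 2.22 against 13.5 ± 1.11 CPM (SD, n = 4 each) with -0.81 (adjusted p = 0.157, edgeR), and the sum of both genes gave -0.96 (SE 0.19, adjusted p = 0.0234). The injured MRL libraries also lay below every injured C57 library for Hspa8 (-0.59, adjusted p = 0.071, edgeR) and Hspa12a (-1.44, adjusted p = 0.0733). Dnajb1 lay above in every one, at 0.42 (adjusted p = 0.259). With Hspa1a and Hspa1b these made 5 of 10 genes whose groups did not overlap, against 16% of all genes, and 1 of the 5 passed. DESeq2 called Hspa1b and Hspa12a (-1.44, adjusted p = 0.00321), where it called 5.49% of genes in either direction. Hsph1 did not pass (0.64, edgeR) but did without BI-184 (1.24, adjusted p = 0.0439). These injured libraries include neither of the 2 uninjured libraries whose strain label was contradicted. Some cell markers differed between them too: Csf1r, a macrophage receptor (-1.39, adjusted p = 0.0273, edgeR), Pecam1 of endothelium (-3.75, adjusted p = 0.0389) and the globin gene Hba-a2 (-12.53, adjusted p = 0.00303) were lower in MRL, and the tenocyte factor Scx was higher (1.18, adjusted p = 0.0162). Hba-a2 stood far from its list, as the 5 red blood cell genes had a median of -1.67 and values up to -0.32. Their summed counts overlapped, at 0.00168% to 0.0291% in injured MRL and 0.00799% to 0.0553% in injured C57 libraries. The 9 leukocyte markers tested had a median of -0.22. The part of these markers in the differences of the 10 genes was not tested.

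In uninjured tendons no gene of the set or of the whole table passed (0% of 14055), with 1106 genes at an unadjusted p under 0.05 and 101 calls by DESeq2 over all genes (0.381%). Without both uninjured libraries numbered 4, 3.48% of 14274 genes passed both criteria and still none of the 10. Hspa8, at -0.27 (SE 0.23, adjusted p = 0.779, edgeR) with all libraries, then had a log2 difference of -0.59 (SE 0.12, adjusted p = 0.0195), with 3 of 3 MRL libraries (303 to 363 CPM) below 3 of 3 C57 libraries (438 to 554 CPM). Hspa12a (0.90, SE 0.36, adjusted p = 0.212, edgeR) and Hspb1 (0.39, SE 0.18, adjusted p = 0.28) lay above in all 3 MRL libraries. These 3 of 10 genes had groups that did not overlap, against 24.8% of all genes. Hspb1, Dnajb1 and Hspd1 changed sign when these libraries were left out, Hspb1 from -2.05 to 0.39, Dnajb1 from -0.56 to 0.31 and Hspd1 from -0.13 to 0.22, and none of them passed in either fit.

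Whether the change after injury differed between the strains was tested as an interaction over all 16 libraries, and no gene of the table passed (0% of 15947), with 1939 at an unadjusted p under 0.05. Hspa12a came nearest among the 10, with a difference of log2 fold changes of -2.37 (SE 0.51, unadjusted p = 0.000253, adjusted p = 0.333, edgeR). It was -2.32 (adjusted p = 0.221) without both uninjured libraries numbered 4, where again 0% of the genes tested passed and 1735 had an unadjusted p under 0.05. DESeq2 gave -2.38 for this gene with an adjusted p of 0.000185, and 212 genes over the table (0.713% of the genes with any count). For Hspa1a and Hspa1b, the interactions were -0.46 (adjusted p = 0.615, edgeR) and 0.04 (adjusted p = 0.993), and without both uninjured libraries numbered 4 they were -0.59 (adjusted p = 0.561) and -0.63 (adjusted p = 0.438), so a difference between the strains in how far they fell was not shown.

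Other chaperone genes were drawn from 9 lists, 111 genes in all, of which 101 were tested after injury. In C57 none passed, against 1.07% of all genes, and their median log2 fold change was 0.02, against -0.05 over all genes. In MRL 5 of 101 passed, all higher, against 5.25% of all genes that were higher, and the median was 0.23 against -0.03. When the library labelled MRL uninjured replicate 4 was left out, 3 passed (Serpinh1, Dnajc15 and Hspb7), against 4.68% of all genes. Serpinh1, the collagen-specific chaperone of the endoplasmic reticulum known as HSP47, measured 386, 420, 362 and 310 CPM in the uninjured and 756, 1260, 773 and 798 CPM in the injured MRL libraries, with a log2 fold change of 1.29 (SE 0.20, adjusted p = 0.0041, edgeR). In C57 it was 1.24 (SE 0.42, adjusted p = 0.216) with all libraries and 0.98 (adjusted p = 0.109) without the library labelled C57 uninjured replicate 4, which held 116 CPM against 328 or more in the others.

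The cytosolic chaperonin TRiC, a ring that folds actin and tubulin, had 8 subunit genes. All 8 were higher in each injured than in each uninjured MRL library, where 22.9% of all genes did not overlap in either direction, and 4 of them had an adjusted p under 0.05, against 11.1% in either direction, with changes below the limit of size. Cct5 measured 197, 228, 184 and 182 CPM without injury and 338, 337, 306 and 408 CPM with it (log2 fold change 0.82, SE 0.15, adjusted p = 0.00812, edgeR), and Tcp1 gave 0.75, Cct6a 0.61 and Cct8 0.57. The median of the 8 was 0.59 in MRL and 0.02 in C57. Without the libraries labelled replicate 4 it was 0.56 in MRL, where the groups of all 8 still did not overlap and 1 passed on adjusted p (Cct5), and 0.27 in C57, where 8 of 8 were positive and none passed.

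In the endoplasmic reticulum list, 17 of 18 genes had positive values in MRL with a median of 0.53, against 5 of 18 and -0.09 in C57. Over all genes tested the medians were -0.03 in MRL and -0.05 in C57. Without the library labelled MRL uninjured replicate 4, all 18 were positive, with a median of 0.47, and without the one labelled C57 uninjured replicate 4, 4 of 18 were positive in C57, with a median of -0.16. In MRL 2 of 18 passed, both higher, against 5.25% of all genes that were higher. They were Serpinh1 and Manf (1.13, SE 0.31, adjusted p = 0.0423, edgeR), a secreted stress protein, and Manf did not pass without the library labelled MRL uninjured replicate 4 (1.03, adjusted p = 0.0975). Hspa5, the main HSP70 of that compartment (BiP), measured 1100, 1050, 1120 and 1090 CPM without and 1510, 1330, 1210 and 1770 CPM with injury in MRL, and its value of 0.43 (SE 0.16) had an adjusted p of 0.12, or 0.153 without the library labelled MRL uninjured replicate 4. Between the injured tendons of both strains, all 18 were higher in MRL on average, with a median of 0.74, and 3 passed, in a comparison where 1.55% of all genes were higher in MRL: Pdia4 (1.26, adjusted p = 0.00554, edgeR), Calr (1.01, adjusted p = 0.0278) and Hyou1 (1.96, adjusted p = 0.0367). All 10 tenocyte markers were also higher there on average (median 0.91, 1 passed), and they took 6.94% to 10.8% of counts in injured MRL against 3.38% to 6.68% in injured C57 libraries. Their part was not tested. Hyou1, an HSP110-like exchange factor of the endoplasmic reticulum, was also higher in uninjured MRL without both libraries numbered 4 (1.81, adjusted p = 0.00516, edgeR), where 3.48% of all genes passed. With all libraries no gene of this list passed in uninjured tendons, and its highest value was 1.16.

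Among the other small heat shock proteins, 6 of 8 were tested, and in C57 several were highest in BI-181, the library with muscle markers. Hspb6 reached 1430 CPM and Hspb7 reached 912 CPM in BI-181, against at most 73.4 CPM for either in the other C57 libraries, and Cryab reached 604 CPM there against 123 CPM or less. None of the 6 passed in C57, against 1.07% of all genes. Muscle markers took at most 0.00133% of counts in MRL, and 4 were tested there. Of these 1, Tnni2, was higher after injury (2.51, adjusted p = 0.0421, edgeR), and 3 had negative values, with a median of -0.47 over the 4. The part of muscle in the small heat shock genes was not tested. Hspb7 rose in MRL from 7.76, 3.61, 5.56 and 17.6 CPM to 36.9, 108, 30.9 and 27.1 CPM (log2 fold change 2.56, SE 0.57, adjusted p = 0.0196, edgeR). Hspb6 rose as well (1.02, SE 0.29, adjusted p = 0.0455), so that 2 of 6 rose, against 5.25% of all genes. Without the library labelled MRL uninjured replicate 4, Hspb6 did not pass (1.07, adjusted p = 0.0758). Dnajc15, a J-domain protein of the mitochondrial inner membrane, was the only 1 of 37 J-domain genes tested to pass in MRL (1.35, SE 0.26, adjusted p = 0.0114, edgeR), against 5.25% of all genes that were higher.

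Of 18 cochaperones of HSP70 and HSP90, none passed both criteria in either strain, against 1.07% of all genes in C57 and 7.41% in MRL. In MRL 13 of 18 had positive values, with a median of 0.20 against -0.03 over all genes. In 5 of 18 all injured MRL libraries lay higher, against 13.5% of all genes, and in 1 of 18 lower, against 9.44%. On adjusted p alone 2 were higher, against 7.73% of all genes, and 1 lower, against 3.36%. The higher ones, named after their values were seen, were Cacybp, a partner of ubiquitin ligases, and Stip1 (HOP), which links HSP70 to HSP90. Cacybp went from 63.7 ± 8.01 to 126 ± 25.9 CPM (SD, n = 4 each) with a log2 fold change of 0.99 (SE 0.18, adjusted p = 0.00776, edgeR), and Stip1 from 68.8 ± 10.8 to 113 ± 21.6 CPM (SD, n = 4 each) with 0.72 (SE 0.18, adjusted p = 0.0302). Without the library labelled MRL uninjured replicate 4, Cacybp alone of the list had an adjusted p under 0.05 (0.94, adjusted p = 0.0209, edgeR), and Stip1 gave 0.74 (adjusted p = 0.0506). Bag3, which exchanges nucleotide on HSP70 and is itself a heat shock gene, was lower in injured MRL tendons on p alone, from 113 to 133 CPM without injury and from 73.8 to 97.5 CPM with it. Its log2 fold change was -0.58 (SE 0.14, adjusted p = 0.0274, edgeR), and it had an adjusted p of 0.0674 without the library labelled MRL uninjured replicate 4. Hsf1, the main heat shock factor, did not pass in either strain, at -0.16 (adjusted p = 0.862, edgeR) in C57 and -0.17 (adjusted p = 0.557) in MRL, and neither did Hsp90ab1, the constitutive HSP90, at -0.06 (adjusted p = 0.937) and 0.17 (adjusted p = 0.505), nor Hspa9, the mitochondrial HSP70, at 0.08 (adjusted p = 0.903) and 0.33 (adjusted p = 0.24). None of these passed without the libraries labelled replicate 4, where Hsf1 gave 0.17 in C57 and -0.09 in MRL.

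**Figure D4:**
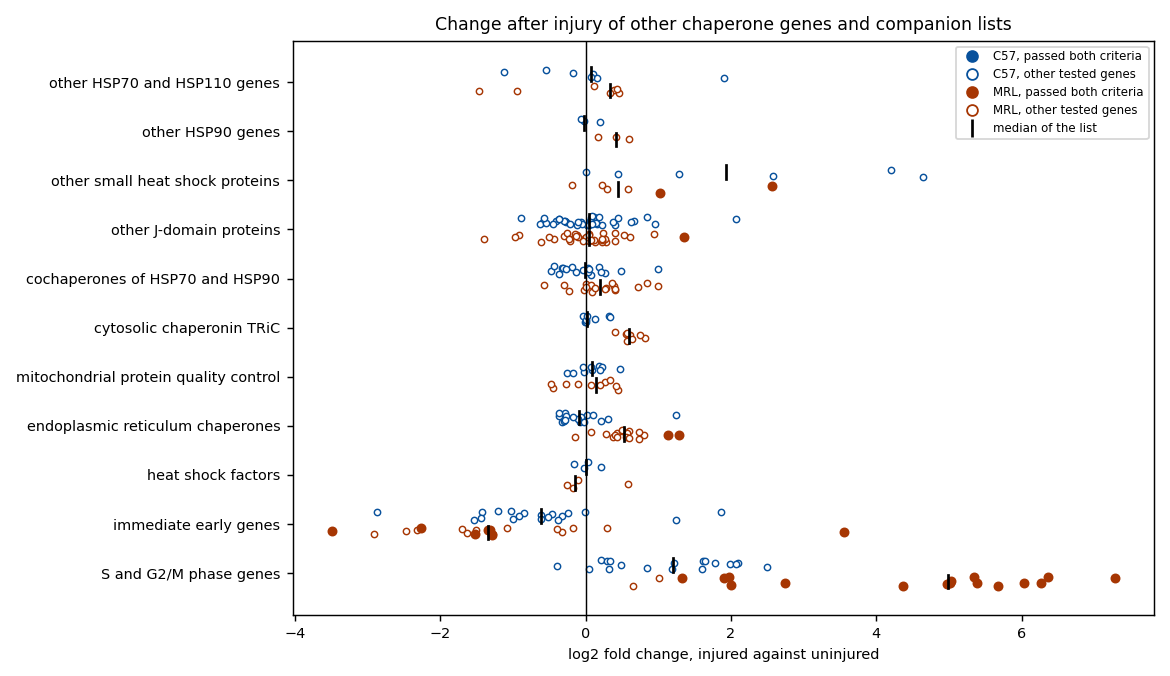
Log2 fold change after injury (x axis) of the tested genes of 9 chaperone lists and 2 companion lists (y axis), in C57 (blue) and MRL (brown); filled points passed both criteria and black bars are list medians. TRiC genes sit at a median of 0.59 in MRL and 0.02 in C57, and S and G2/M phase genes lie farthest to the right in MRL, at a median of 4.99.

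Of 19 immediate early genes tested, which respond within minutes to handling and wounding, 6 fell in MRL, against 2.15% of all genes, and 1 rose, against 5.25%, with a median of -1.35. None passed in C57, against 1.07%, with a median of -0.61. Without the library labelled C57 uninjured replicate 4, 2 fell in C57, Fosb (-3.29, adjusted p = 0.0418, edgeR) and Jund (-1.04, adjusted p = 0.00965), against 1.51% of all genes, with a median of -0.82. Nr4a1 fell from 202 to 799 CPM in the uninjured to 10.6 to 56 CPM in the injured MRL libraries (-3.49, SE 0.56, adjusted p = 0.00491, edgeR), and Dusp1 fell with it (-2.26, adjusted p = 0.032). Fos had the highest level in the library labelled MRL uninjured replicate 4, with 3160 CPM against 119 to 300 CPM in the rest of its group. When that library was left out, 1 of the list fell in MRL (Nr4a1, -2.86, adjusted p = 0.00917), against 1.43% of all genes, and the median was -0.43. In that fit 7 of 19 lay lower in all injured libraries, against 13% of all genes. Of 18 S and G2/M phase genes, 16 rose in MRL (median 4.99), against 5.25% of all genes, for example Mki67 (5.68, adjusted p = 0.00106, edgeR), and none passed in C57 (median 1.21), where 9 rose without the library labelled C57 uninjured replicate 4 (median 2.91), against 3.5% of all genes. The part of handling and of dividing cells in the changes of the 10 genes was not tested.

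The genes most like Hspa1b and Hspd1 were found by Pearson's r of log2 CPM over the 16 libraries, among 15836 genes and with no p. For Hspa1b they were Afdn (r = 0.94), Usp7 (0.93) and Rab30 (0.92), each highest in the library labelled C57 uninjured replicate 4, and without that library r was 0.90, 0.87 and 0.89. For Hspd1 they were Psma4 (0.92), Ufc1 (0.91) and Pfdn1 (0.91), each highest in BI-275. The points share library size, depth and cell mixture.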

How the data were processed

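Total RNA of single tendons was sequenced as single-end reads of 100 nt. Per the submitters' processing notes, reads were trimmed with Trimmomatic 0.36, mapped with STAR 2.5.2b to GRCm38.p5 and counted with featureCounts of Subread 1.5.0p3, and the authors' own tests used DESeq2 1.14.1. The table the authors deposited gives raw counts, as whole numbers, for 49568 gene symbols, and the strand setting of the counting is not given in the sources used here. The methods describe pre-amplification with a SMARTer kit, the labels a TruSeq kit, and neither names molecular identifiers, so counting error understates the technical error. Samples were grouped by their labels, and the methods give 4 animals a group, so p-values measure the spread between libraries of different animals. In the uninjured groups this spread includes the libraries numbered 4, which went against their strain labels. It also includes differences in tissue mixture, as in BI-181 and the library labelled C57 uninjured replicate 4.

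From the counts, edgeR 4.0.16 in R 4.3.3 was run with its expression filter, TMM factors and the robust quasi-likelihood test on the libraries of each comparison, and on all 16 for the interaction. Adjusted p-values (Benjamini-Hochberg) cover all genes tested. Standard errors are the absolute log2 fold change over the square root of F. Log2 CPM used a prior count of 2. Exon lengths came from GENCODE M21 and promoter windows (250 bases before to 50 after a start) from RefSeq GRCm38.p6. The tests were checked on simulated counts with a lower spread than these data. Changes there were larger than those of the genes of the set that passed, and no library was given the genes of another strain. That check therefore does not cover the calls given here. The genes named were the 10 members, 9 fixed genes, and up to 8 genes per list and comparison that passed. The members and lists were chosen with earlier results of these data known. Same-numbered uninjured libraries are different mice, and the correlations of their deviations were -0.26, 0.02, -0.10 and -0.23, so the numbers do not pair them. Alternatives were DESeq2 1.42.0, upper-quartile factors, total counts, no filter, 1 fit over all libraries, summed near copies, the replicate block and each library left out.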

Additional observations from a re-analysis of the deposited data

Results flagged for a closer look

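Of 40 groups of 4 libraries (10 genes in 4 groups), 5 had a library far from the other 3 by Dixon's criterion, where chance gives about 1 in 20. The library labelled C57 uninjured replicate 4 gave 3 of them, with 215 CPM of Hspa1b against 44.6 to 62.9 CPM, 1080 CPM of Hspb1 against 50 to 73.3 CPM and 288 CPM of Dnajb1 against 50.6 to 86.8 CPM in the rest of its group. This is the library with 7.25% epidermal markers whose strain-specific genes were those of MRL. BI-181, with 6.37% muscle markers, gave the other two, with 284 CPM of Hspb1 against 49.1 to 64.5 CPM and 50.6 CPM of Hspe1 against 35.5 to 38 CPM.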

How the results depend on the processing

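The fall of Hspa1a and Hspa12a in MRL passed both criteria in each alternative tried, and that of Hspa1b in all of them but the fit over all 16 libraries. The number of the 10 genes that passed in C57 was 0, but 1 with DESeq2 and with 1 fit over all 16 libraries (Hspa1a both times), and 0 to 1 with 1 library left out. In injured MRL against C57 it was 1, but 2 with DESeq2, 0 with upper-quartile factors, without the filter, in 1 fit over all 16 libraries and with Hspa1a and Hspa1b summed, and 0 to 1 with 1 library left out (Hspa1b in 1 fit and Hsph1 in the one without BI-184). DESeq2 gave 1 for the interaction. The other chaperone genes that passed in C57 numbered 0, but 2 with DESeq2, 1 in the fit over all 16 libraries and 1 without both the library labelled C57 uninjured replicate 4 and BI-181, and in MRL 2 to 7 with 1 library left out, against 5. The replicate block on the uninjured libraries left 0 of the 10 past both criteria, as without it, and no gene of the table passed in either fit. The cause of these moves was not tested.

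Signs changed as follows. Without both uninjured libraries numbered 4, MRL against C57 gave 0.39 for Hspb1, 0.31 for Dnajb1 and 0.22 for Hspd1, and the interaction -0.63 for Hspa1b, 0.01 for Hspa8 and -1.90 for Hspb1. With BI-181 and the library labelled C57 uninjured replicate 4 both left out (chosen after seeing the data), injury in C57 gave 0.14 for Hsph1, and the interaction -0.76 for Hspa1b, -0.85 for Hspb1 and -0.10 for Dnajb1. Hsp90aa1 in uninjured tendons gave 0.02 with upper-quartile factors, 0.03 without the filter and 0.01 in the fit over all 16 libraries, and the Hspa1b interaction -0.01 with upper-quartile factors and -0.15 with total counts. With 1 library left out, ranges that held both signs were -2.47 to 0.83 for Hspb1 after injury in C57, -0.07 to 0.26 for Hspa8 after injury in MRL, and, in uninjured tendons, -2.39 to 0.31 for Hspb1, -0.08 to 0.10 for Hsp90aa1, -0.79 to 0.38 for Dnajb1, -0.48 to 0.06 for Hsph1 and -0.23 to 0.12 for Hspd1. For the interaction they were -0.76 to 0.29 for Hspa1b and -1.82 to 1.47 for Hspb1. The sum of Hspb1 and Hsp25-ps1, also chosen after seeing the data, changed no call with all libraries. With it or the sum of Hspa1a and Hspa1b and the uninjured library numbered 4 left out (chosen likewise), Hspb1 gave 0.83 after injury in C57, 1 of the 10 genes passed there with the former sum, and 3 other chaperone genes passed in MRL.

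Calls over the whole table also moved. With DESeq2, which was run without edgeR's expression filter (26926 genes in C57 and 26637 in MRL, against 14424 and 14274), they went from 155 (1.07%) to 909 (3.38%) in C57, from 1057 (7.41%) to 1818 (6.83%) in MRL, from 0 to 101 (0.381%) between uninjured strains, from 502 (3.43%) to 1488 (5.49%) between injured strains and from 0 to 212 (0.713%) for the interaction. Without that filter edgeR gave 967 in MRL and 145 in C57. With 1 library left out the calls numbered 689 to 1260 in MRL and 10 to 750 in C57, where the 750 came from leaving out the uninjured library labelled replicate 4. A change under 2-fold cannot pass both criteria. In MRL 1584 genes had an adjusted p under 0.05, and 1057 of these also passed on size. The biological coefficient of variation was 0.605 in C57 and 0.476 in MRL. Without the uninjured library labelled replicate 4 it was 0.485 in C57 and 0.493 in MRL.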
